A study of Mus musculus with 4 samples.

Results

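The insulin-like growth factor (IGF) system was described across 4 Illumina mouse whole-genome BeadChip arrays of mouse embryonic fibroblasts (MEFs) through 9 of its genes, taken by gene symbol: the ligand Igf1, the receptors Igf1r and Igf2r, and the binding proteins Igfbp2, Igfbp3, Igfbp4, Igfbp5, Igfbp6 and Igfbp7. These genes have 22 of the 45281 probes on the array, and all 9 are among the 12616 genes with a probe detected on at least 1 array. The rule uses symbols and no measured value, although the set was picked with earlier results of these data known. The series asks how loss of Rb, and its replacement by wild type or phospho-mutant Rb, alters transcription.

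All 4 cultures were FVB;129 MEFs, which the study made from mice with floxed Rb alleles, and each gave 1 array. Parental MEFs received solution without TAT-Cre and then medium alone. Rb-deleted MEFs received TAT-Cre, a cell-permeable recombinase that the study used to inactivate the floxed Rb gene, and medium alone. WT Rb-HA MEFs received TAT-Cre and a retrovirus with wild type Rb, and ΔCdk Rb-HA MEFs received TAT-Cre and a retrovirus with the phospho-mutant that Cdks cannot phosphorylate. Each TAT-Cre, virus or mock step was given 2 times for 1 hr, 3 hr apart. The paper, but not the labels, adds that all cultures were released from contact arrest for 4 hr and then treated with doxorubicin, a DNA-damaging topoisomerase II inhibitor, at 100 ng/ml for 3 hr. Only the parental culture had no TAT-Cre, so Rb loss, TAT-Cre and the culture itself cannot be told apart in any ratio to parental. The retroviral cultures differ from the Rb-deleted culture by infection as well as by Rb.

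IGF1 and IGF2 are secreted growth factors that signal through the IGF1 receptor, a tyrosine kinase upstream of the insulin receptor substrates, PI3-kinase, Akt and the Ras pathway. The IGF2 receptor carries no kinase and takes IGF2 to lysosomes. IGF binding proteins hold IGFs in the medium and matrix, where they can withhold the ligand or deliver it, and proteases that cut them free the ligand. Fibroblasts are a well known source of these binding proteins, and IGFs are classical progression factors for fibroblasts in G1 phase.

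Values are the mean brightness of a probe over its beads, as deposited, followed by the log2 difference between arrays after background correction and quantile normalization. The error given is the bead standard error, which covers the beads within an array and leaves out the spread between cultures. With 1 array per condition there is no replicate check and no test, and the number of arrays limits the precision. A gene counts as past the filter above 1.6-fold, the study's own threshold, or 0.68 on the log2 scale. A probe counts as detected at a detection p-value below 0.01. Across the 4 arrays, mean intensity was 336 to 346 and 15950 to 16740 probes were detected. The deleted gene, Rb1, had intensities of 543 in parental, 160.5 in Rb-deleted, 181 in WT Rb-HA and 170.1 in ΔCdk Rb-HA MEFs at its brightest probe, so all 3 TAT-Cre arrays were lower. Compared to Rb-deleted MEFs, Rb1 in WT Rb-HA MEFs was at 0.19 (0.08) on this probe and -0.35 (0.16) on the dimmer one, and in ΔCdk Rb-HA MEFs at 0.13 (0.08) and -0.20 (0.17). These arrays therefore do not show the re-expressed Rb. Whether the retroviral transcripts carry the probed stretches is not stated outright in the sources used here, so these probes may be unable to detect them. By immunoblot, the paper reports both retroviral Rb proteins in Rb-deleted MEFs, at levels it calls physiologic. The retroviral cultures are named by their labels.

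Fibroblast markers were detected for 10 of 10 genes, with summed intensities of 65337, 60045, 66542 and 58682 in the parental, the Rb-deleted, the WT Rb-HA and the ΔCdk Rb-HA culture. Leukocyte markers were detected for 15 of 19 genes, with summed intensities of 11963, 6295, 5842 and 7414 in the same order, while Ptprc, Lyz1, Fcer1g and Itgam were not detected. The lysozyme symbols Lyz, Lyzs, Lyz1 and Lyz2 were each counted as a gene. Lyz was the brightest leukocyte marker, at 4801, 2976, 2803 and 3611. Markers were detected for 1 of 6 endothelial, 4 of 5 epithelial and 4 of 5 smooth muscle and myofibroblast genes. They were also detected for 1 of 4 skeletal muscle, 3 of 4 chondrocyte and 0 of 4 adipocyte genes. Summed intensities were 35112 to 37943 for smooth muscle and myofibroblast genes, mostly from Acta2. They were 1138 to 1376 for chondrocyte genes, mostly from Sox9 at 976 to 1163, and only 267 to 316 for epithelial genes. The other detected chondrocyte markers were dim, with Col2a1 at 72.6 to 97.1 and Acan at 64.7 to 116.2. In such bulk samples fewer cells of a type and less RNA per cell cannot be told apart.

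Each measurement rests on a DNA probe of 50 bases. The 5 probes printed here lie in coding sequence, as read from general knowledge of these proteins and not from an annotation. Those of Igf1 and Igfbp6 are shown because they stand for their genes and passed 1.6-fold. Those of Igf1r, Igfbp2 and Igfbp3 are shown because another probe, elsewhere in the transcript, gave other values. The printed Igfbp3 probe passed 1.6-fold in no comparison. The Igfbp3 probe that did, at position 2129, stands for the gene and is not printed. Positions count from the first base of the transcript. Capitals mark the 11 bases that the Igfbp3 and Igfbp6 probes share, the longest stretch that any probes of different members have in common, and no other probe on the array has any of these 5 sequences.
Igf1, position 286: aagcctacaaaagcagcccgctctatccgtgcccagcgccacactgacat
Igf1r, position 4099: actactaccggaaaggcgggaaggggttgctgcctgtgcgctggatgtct
Igfbp2, position 371: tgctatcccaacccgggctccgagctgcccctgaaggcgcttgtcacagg
Igfbp3, position 823: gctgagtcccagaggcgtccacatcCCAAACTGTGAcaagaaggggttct
Igfbp6, position 704: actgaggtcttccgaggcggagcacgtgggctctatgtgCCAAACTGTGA

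Of the 22 probes, 17 were detected on all 4 arrays, 1 probe of Igf1 was detected on 3, and 4 probes of Igfbp7 were detected on none. The members therefore all have at least 1 probe above background everywhere, with 28 to 66 beads behind each value.

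**Figure D1:**
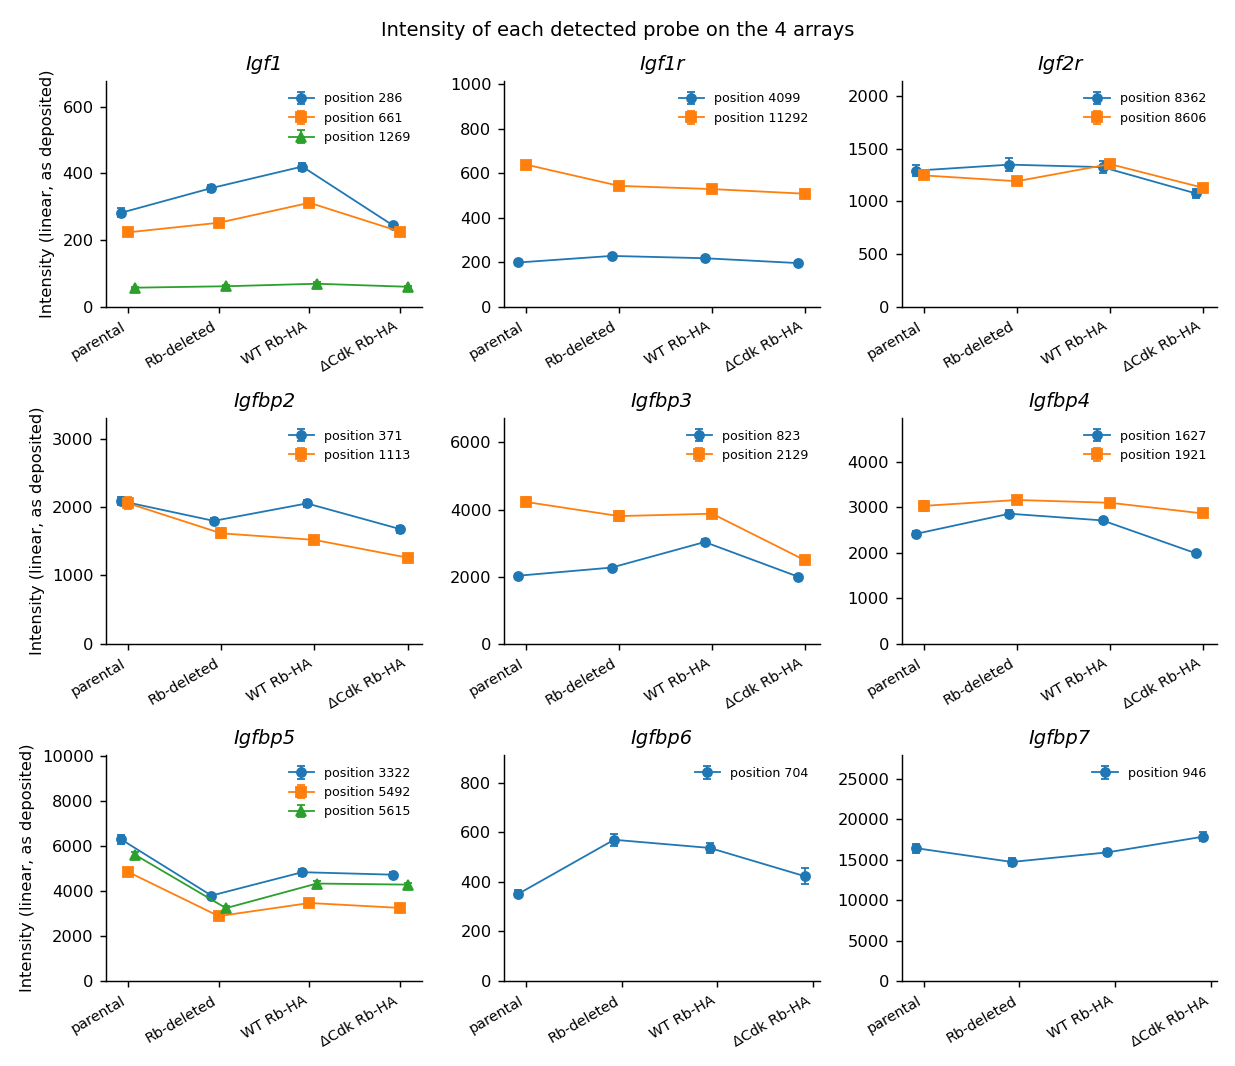
Deposited intensity (linear scale, axes from 0) of every detected probe of the 9 genes on the parental, the Rb-deleted, the WT Rb-HA and the ΔCdk Rb-HA array. Each marker shape is 1 probe, named by its transcript position, lines only join the values of 1 probe, and bars are bead standard errors. All 3 Igfbp5 probes are highest in parental and lowest in Rb-deleted MEFs, and all 3 Igf1 probes are highest in WT Rb-HA MEFs.

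Igf1, the secreted ligand (chromosome 10), was highest in MEFs with WT Rb-HA and close to parental in MEFs with ΔCdk Rb-HA. Intensity of the brightest probe, at position 286, was 281 in parental, 356 in Rb-deleted, 420.5 in WT Rb-HA and 244 in ΔCdk Rb-HA MEFs. Set against parental on the log2 scale, Rb-deleted MEFs stood at 0.41 (bead standard error 0.09), those with WT Rb-HA at 0.67 (0.09) and those with ΔCdk Rb-HA at -0.15 (0.10). Both first values exceeded 2 bead standard errors but none passed 1.6-fold.

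The probe at position 661 had intensities of 223, 252, 312 and 225 on the same 4 arrays. Its order was the same at the top, with WT Rb-HA above Rb-deleted MEFs, while parental and ΔCdk Rb-HA MEFs lay within 2 bead standard errors of each other. The remaining probe, at position 1269 of another transcript variant, was dim, at 57.0, 61.2, 68.8 and 59.7, and was not detected on the parental array. It too was brightest in WT Rb-HA MEFs, 1.32-fold above the lowest detected value of the parental array. Its log2 ratio to parental there was 0.40 (0.19), little more than 2 bead standard errors and near the detection limit.

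Between the retroviral cultures Igf1 was lower in ΔCdk Rb-HA MEFs by 0.82 on the log2 scale at position 286 (0.07), or 1.76-fold. Only 0.55% of all genes had a lower difference in this comparison. The probe at 661 gave -0.50 (0.05), which does not pass 1.6-fold, and the dim probe gave -0.28 (0.18). Compared to Rb-deleted MEFs, ΔCdk Rb-HA MEFs were at -0.56 (0.07) and -0.15 (0.06) on the brighter probes, and WT Rb-HA MEFs at 0.25 (0.06) and 0.35 (0.06). Macrophages also make Igf1, and the leukocyte markers moved the other way in Rb-deleted and WT Rb-HA MEFs: all 15 were below parental on both arrays, with median log2 ratios of -0.94 and -1.08, and 14 of 15 were below parental in ΔCdk Rb-HA MEFs, with a median of -0.93. Their part in the Igf1 values was not tested.

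Igf1r, the signalling receptor (chromosome 7), differed little, and its probes did not give one direction. The brightest probe, at position 11292, had intensities of 639, 543, 529 and 508 in the parental, the Rb-deleted, the WT Rb-HA and the ΔCdk Rb-HA culture, with log2 ratios to parental of -0.21 (0.05), -0.23 (0.05) and -0.26 (0.06). The coding probe at 4099 had intensities of 199, 228, 218 and 196, and ratios of 0.26 (0.10), 0.19 (0.12) and 0.05 (0.12). After normalization the parental array was thus highest on one probe and lowest on the other, and the 3 TAT-Cre arrays lay within 2 bead standard errors of each other on both.

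Igf2r, the receptor that clears IGF2 (chromosome 17), is an imprinted gene in the mouse. Its probe at position 8362 had intensities of 1291, 1348, 1324 and 1075 in the same order of arrays, and its probe at 8606 had 1246, 1190.3, 1353 and 1128. Both were lowest in ΔCdk Rb-HA MEFs. The log2 difference of ΔCdk Rb-HA from WT Rb-HA MEFs was -0.27 (0.09) and -0.24 (0.04), more than 2 bead standard errors on both probes and below 1.6-fold. Ratios to parental lay between -0.17 and 0.19 over both probes and all 3 arrays. Those of ΔCdk Rb-HA MEFs, -0.17 (0.09) at 8362 and -0.05 (0.03) at 8606, were within 2 bead standard errors.

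Igfbp5 (chromosome 1), a binding protein that also binds extracellular matrix, was lower in all 3 TAT-Cre cultures than in parental MEFs, and lowest in Rb-deleted MEFs. Its brightest probe, at position 3322, had intensities of 6301 in parental, 3792 in Rb-deleted, 4831 in WT Rb-HA and 4721 in ΔCdk Rb-HA MEFs. The probe at 5492 had 4846, 2879.7, 3462 and 3243, and the probe at 5615 had 5601, 3235, 4326 and 4279. All 3 probes put the arrays in the same order, with both retroviral cultures between the Rb-deleted and the parental culture.

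In Rb-deleted MEFs Igfbp5 stood against parental at log2 ratios of -0.68 (0.05), -0.75 (0.05) and -0.74 (0.05) at 3322, 5492 and 5615. The last 2 passed 1.6-fold, and the first, which stands for the gene, fell just short of it at 1.599-fold. In WT Rb-HA MEFs the ratios were -0.37 (0.07), -0.48 (0.06) and -0.34 (0.04), and in ΔCdk Rb-HA MEFs they were -0.39 (0.06), -0.58 (0.05) and -0.36 (0.04). Compared to Rb-deleted MEFs, Igfbp5 was higher by 0.27 to 0.40 with WT Rb-HA and by 0.17 to 0.38 with ΔCdk Rb-HA, each more than 2 bead standard errors and none past 1.6-fold. The retroviral cultures differed from each other by -0.02 (0.07), -0.10 (0.06) and -0.02 (0.04), within 2 bead standard errors on every probe.

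Igfbp6 (chromosome 15), a binding protein that prefers IGF2, moved the opposite way. Its single probe, at position 704 and shown above, had intensities of 352 in parental, 569.7 in Rb-deleted, 537 in WT Rb-HA and 422 in ΔCdk Rb-HA MEFs. All 3 TAT-Cre arrays were above parental, with log2 ratios of 0.77 (0.09) after Rb deletion, 0.70 (0.08) after adding WT Rb-HA and 0.37 (0.13) after adding ΔCdk Rb-HA. The first 2 passed 1.6-fold, at 1.71-fold and 1.63-fold. The WT Rb-HA value fell below 1.6-fold under all 4 other background and scaling settings, at log2 ratios of 0.61 to 0.66. WT Rb-HA and Rb-deleted MEFs lay within 2 bead standard errors of each other, at -0.07 (0.09). ΔCdk Rb-HA MEFs were lower than both, with log2 differences of -0.40 (0.14) from Rb-deleted MEFs and -0.33 (0.13) from WT Rb-HA MEFs. No second probe checks these values, and the ΔCdk Rb-HA value rests on 28 beads, the fewest of the 4 arrays.

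Igfbp3 (chromosome 11), the main carrier of IGFs in serum and a known p53 target, was lower in ΔCdk Rb-HA MEFs than in those expressing WT Rb-HA on both of its probes, but the probes disagreed against parental. The probe at position 2129 had intensities of 4227, 3805, 3876 and 2484 in the parental, the Rb-deleted, the WT Rb-HA and the ΔCdk Rb-HA culture, so ΔCdk Rb-HA MEFs stood below the other 3 arrays. The coding probe at 823 had 2029, 2271, 3033 and 2002, so there WT Rb-HA MEFs stood above the other 3.

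The log2 difference of Igfbp3 in ΔCdk Rb-HA from WT Rb-HA MEFs was -0.62 (0.09) at 2129 and -0.58 (0.05) at 823, close to each other and both short of 1.6-fold. Against parental, ΔCdk Rb-HA MEFs were at -0.74 (0.09) on the first probe, past 1.6-fold, and at 0.06 (0.05) on the second. WT Rb-HA MEFs were at -0.12 (0.08) and 0.64 (0.05), so they lay on opposite sides of parental. The call of Igfbp3 against parental therefore belongs to 1 probe.

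Igfbp2 (chromosome 1), abundant in fetal tissues, was lowest in ΔCdk Rb-HA MEFs on both probes. The coding probe at 371 had intensities of 2092, 1799.9, 2056 and 1679.7, and the probe at 1113 had 2058, 1617, 1521 and 1262. Log2 ratios to parental were -0.17 (0.06), 0.04 (0.06) and -0.23 (0.06) at 371 and -0.30 (0.09), -0.39 (0.09) and -0.63 (0.08) at 1113. WT Rb-HA MEFs were level with parental on one probe and below it on the other, whereas ΔCdk Rb-HA against WT Rb-HA gave -0.27 (0.05) and -0.24 (0.08).

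Igfbp4 (chromosome 11), which generally withholds IGFs from the receptor, had intensities of 3029, 3158, 3098 and 2862 at position 1921 and 2416, 2857, 2709.8 and 1989.5 at position 1627. Rb-deleted MEFs read highest and ΔCdk Rb-HA MEFs lowest on both, but not every step exceeded 2 bead standard errors. At 1627 ΔCdk Rb-HA MEFs stood at -0.22 (0.06) against parental. There Rb-deleted and WT Rb-HA MEFs lay within 2 bead standard errors of each other. At 1921 every array lay within 2 bead standard errors of the next, with ΔCdk Rb-HA against parental at -0.00094 (0.07). The whole range over the 4 arrays at 1921 was 0.13 on the log2 scale, and 6.91% of genes detected on all 4 arrays had a smaller range. ΔCdk Rb-HA MEFs were lower than Rb-deleted MEFs, with log2 differences of -0.13 (0.05) and -0.51 (0.05) on the 2 probes, and neither passed 1.6-fold.

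Igfbp7 (chromosome 5), a relative that binds IGFs weakly, was bright on its probe at position 946, with 16422 in parental, 14719 in Rb-deleted, 15905 in WT Rb-HA and 17846 in ΔCdk Rb-HA MEFs. Log2 ratios to parental were -0.11 (0.06), -0.05 (0.07) and 0.13 (0.07), all within 2 bead standard errors. Its other 4 probes, at 1027, 1039, 1074 and 1084, read only 28.3 to 38.4 and were never detected. Those at 1039 and 1084 share 46 bases on opposite strands, and those at 1027 and 1074 share 48. So these 4 probes, which form 2 groups of opposite strand, gave no measurement of Igfbp7.

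**Figure D2:**
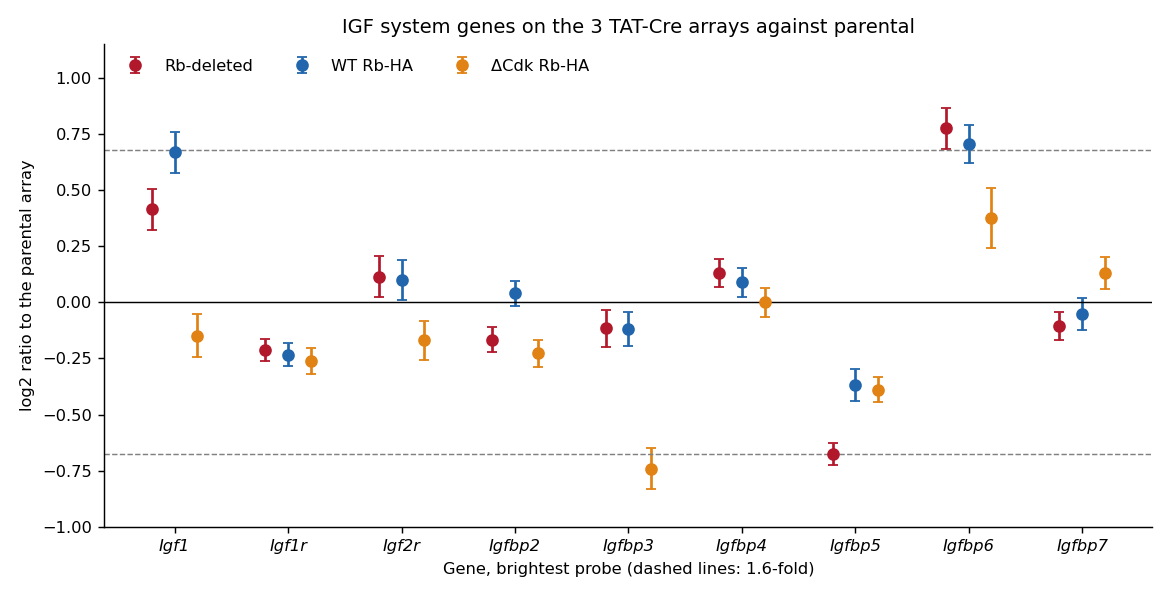
Log2 ratio to the parental array for the brightest probe of each gene in the Rb-deleted, the WT Rb-HA and the ΔCdk Rb-HA culture, with bead standard errors. Dashed lines mark 1.6-fold: Igfbp6 passes in Rb-deleted and WT Rb-HA MEFs, Igfbp3 in ΔCdk Rb-HA MEFs, and Igfbp5 in Rb-deleted MEFs lies on the line.

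Counted by the brightest probe, few members passed the filter, and which gene passed differed between arrays. In Rb-deleted against parental MEFs it was 1 of 9 (Igfbp6), beside 5.12% of all genes. In WT Rb-HA against parental it was 1 of 9 (Igfbp6), beside 3.34%, and in ΔCdk Rb-HA against parental 1 of 9 (Igfbp3), beside 5.87%. With 9 genes, 1 gene past the filter is not a result about the family. These 3 comparisons share the parental array. Median log2 ratios of the 9 genes to parental were -0.11 in Rb-deleted, 0.04 in WT Rb-HA and -0.17 in ΔCdk Rb-HA MEFs, beside 0.02, 0.01 and -0.01 over all genes.

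Without the parental array, WT Rb-HA against Rb-deleted MEFs had 0 of 9 members past 1.6-fold, beside 1.02% of all genes, and their median log2 difference was -0.0045, beside -0.02 over all genes. ΔCdk Rb-HA against Rb-deleted MEFs had 0 of 9, beside 4.26%, with 7 members below 0 and a median of -0.13, beside 54.4% of genes below 0 and a median of -0.03.

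ΔCdk Rb-HA against WT Rb-HA MEFs had 1 of 9 members past 1.6-fold (Igf1), beside 1.85% of all genes. In this comparison 8 of 9 members were below 0, beside 51.3% of all genes, and their median log2 difference was -0.27, beside -0.01 over all genes. By probe, 16 of the 17 detected on all 4 arrays were below 0, beside 51.2% of the 14986 such probes, and the exception was Igfbp7. For Igf1, Igf2r, Igfbp2, Igfbp3 and Igfbp6 the difference exceeded 2 bead standard errors on every probe detected on all 4 arrays, while for Igf1r and Igfbp5 it did so on none. Igfbp7 also exceeded 2 bead standard errors, in the other direction, at 0.18 (0.08). Probes of 1 gene share that gene's RNA, and both retroviral cultures are 1 array each, so this is a count on these arrays. Fibroblast markers lay the same way between these 2 cultures, with 9 of 10 below 0 and a median of -0.21. So did all 4 detected epithelial markers, but these were dim and only Krt18 exceeded 2 bead standard errors, at -0.47 (0.17). Below 0 were also 5 of 15 leukocyte, 1 of 3 chondrocyte, 1 of 1 skeletal muscle, 0 of 1 endothelial and 0 of 4 smooth muscle and myofibroblast markers. Of the 32 detected genes of the wider pathway list described below, 20 were below 0, with a median of -0.06. The lower values were thus not particular to the 9 genes, since the fibroblast markers shared them.

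**Figure D3:**
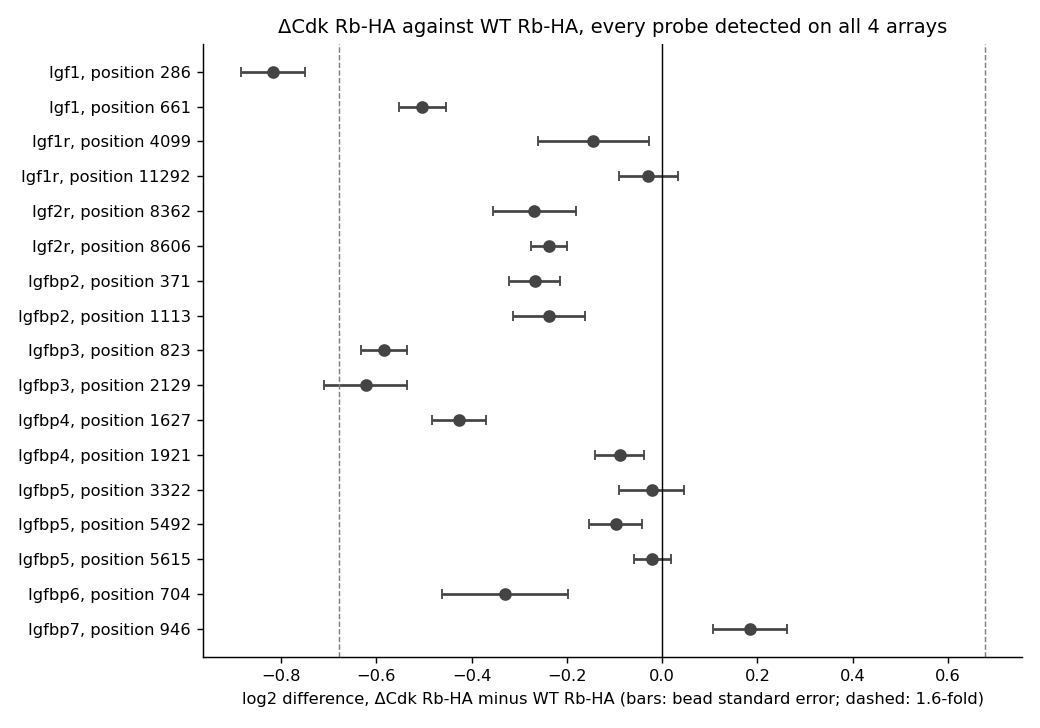
Log2 difference of ΔCdk Rb-HA from WT Rb-HA MEFs for each of the 17 probes detected on all 4 arrays, with bead standard errors; dashed lines mark 1.6-fold. All but the Igfbp7 probe lie below 0, and only the Igf1 probe at position 286 lies past 1.6-fold.

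Over all 4 arrays, Igf1, Igfbp6, Igfbp3 and Igfbp5 had the widest ranges, of 0.82, 0.77, 0.74 and 0.68 on the log2 scale at their brightest probes. At least 89.9% of the 10837 genes detected on all 4 arrays had a narrower range than each of these. The ranges of the other 5 members at their brightest probes were 0.13 to 0.28, beside a median of 0.34 over all these genes. Other probes of these members could differ more. Igfbp2 at position 1113 was at -0.63 (0.08) in ΔCdk Rb-HA MEFs against parental. Igfbp4 at position 1627 was at -0.51 (0.05) in ΔCdk Rb-HA against Rb-deleted MEFs.

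For the members past 1.6-fold against parental, the genes with the most similar ratios were found by Euclidean distance over the 3 log2 ratios, which come from 4 arrays. Nearest to Igfbp6 were Sfrp1, a secreted Wnt antagonist, at a distance of 0.05, Flywch2 at 0.08 and Rem1 at 0.10, and 15 of 10836 genes lay within 0.2. Nearest to Igfbp3 at its brightest probe were Nfkbia, the inhibitor of NF-κB, at 0.05, Slc44a1 at 0.06 and Ptk2b at 0.08, with 34 genes within 0.2.

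Rb acts on many promoters through E2F factors, so the promoters of the 9 genes were searched for the E2F motifs TTTCCCGC, TTTCGCGC, TTTGCCGC and TTTGGCGC on both strands. RefSeq promoters (build GRCm38.p6, 250 bases before to 50 bases after a start) were found for all 9 genes, 10 in all. None of the 10 holds 1 of these motifs, beside 2.26% of 32851 promoters of this length, which says only that these letters are not in this window. The 250 bases before the start are shown for Igfbp5 and Igfbp6, the members whose levels lay furthest below and above parental in Rb-deleted MEFs, with capitals at each CG, the letters that all 4 motifs contain.
Igfbp5, chr1:72874866-72875115, minus strand: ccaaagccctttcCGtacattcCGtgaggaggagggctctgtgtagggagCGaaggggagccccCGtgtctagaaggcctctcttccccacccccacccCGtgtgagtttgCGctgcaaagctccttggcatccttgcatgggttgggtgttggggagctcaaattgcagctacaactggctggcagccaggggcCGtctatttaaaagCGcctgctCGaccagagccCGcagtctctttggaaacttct
Igfbp6, chr15:102143936-102144185, plus strand: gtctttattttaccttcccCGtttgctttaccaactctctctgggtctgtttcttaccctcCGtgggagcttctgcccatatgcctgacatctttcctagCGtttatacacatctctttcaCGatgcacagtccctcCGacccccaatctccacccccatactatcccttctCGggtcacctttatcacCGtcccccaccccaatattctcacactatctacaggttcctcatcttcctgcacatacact
The Igfbp5 stretch holds 10 CG and the Igfbp6 stretch 7.

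Other genes of the pathway mostly stayed within 1.6-fold. Of a list of 44 further genes on the array (ligands, receptors, binding proteins and their proteases, signalling proteins, Igf2 mRNA binding proteins and the growth hormone axis), 32 were detected. None passed 1.6-fold in Rb-deleted or WT Rb-HA MEFs against parental, and 1 did in ΔCdk Rb-HA MEFs. That gene was Stat5a, a transcription factor downstream of the growth hormone receptor, whose intensities were 249 in parental, 215 in Rb-deleted, 194 in WT Rb-HA and 153 in ΔCdk Rb-HA MEFs. With ΔCdk Rb-HA it stood at a log2 ratio of -0.73 (0.10). Medians over the 32 genes were -0.05, -0.09 and -0.13 on the 3 arrays, and 18, 21 and 24 of 32 were below parental, beside 47.5%, 48.6% and 50.9% of all genes. The counts past 1.6-fold, 0, 0 and 1 of 32, stand beside 5.12%, 3.34% and 5.87% of all genes.

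Igf2, the main fetal ligand, was bright on all 4 arrays, with intensities of 24961, 23126, 23666 and 20083 in the parental, the Rb-deleted, the WT Rb-HA and the ΔCdk Rb-HA culture. Its log2 ratios to parental were -0.08 (0.04), -0.10 (0.02) and -0.31 (0.04), with ΔCdk Rb-HA MEFs the lowest. Ins1, Ins2, Igfbp1, Igfbpl1 and Igfals, the insulins and the remaining binding proteins of the list, were at background on all arrays. Insr, the insulin receptor, was detected on 1 array only, ΔCdk Rb-HA, at an intensity of 58.9. Irs1 was at background, at 47.4 to 56.4, and Irs2, an adaptor of both receptors, had log2 ratios to parental of 0.39 (0.05), 0.19 (0.05) and -0.02 (0.06).

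All 6 genes of the list of IGFBP proteases and their inhibitors were detected and none passed 1.6-fold. Pappa, Stc1 and Grb14 are named here after their values were seen. Pappa, the protease that cuts Igfbp4, had log2 ratios to parental between -0.18 and -0.06. Stc1, of the stanniocalcin family that inhibits Pappa, had ratios of -0.63 (0.06) in Rb-deleted, -0.47 (0.05) in WT Rb-HA and -0.24 (0.04) in ΔCdk Rb-HA MEFs. Grb14, an adaptor that inhibits the insulin receptor, was 0.59 (0.09) higher in ΔCdk Rb-HA MEFs compared to WT Rb-HA MEFs, short of 1.6-fold.

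**Figure D4:**
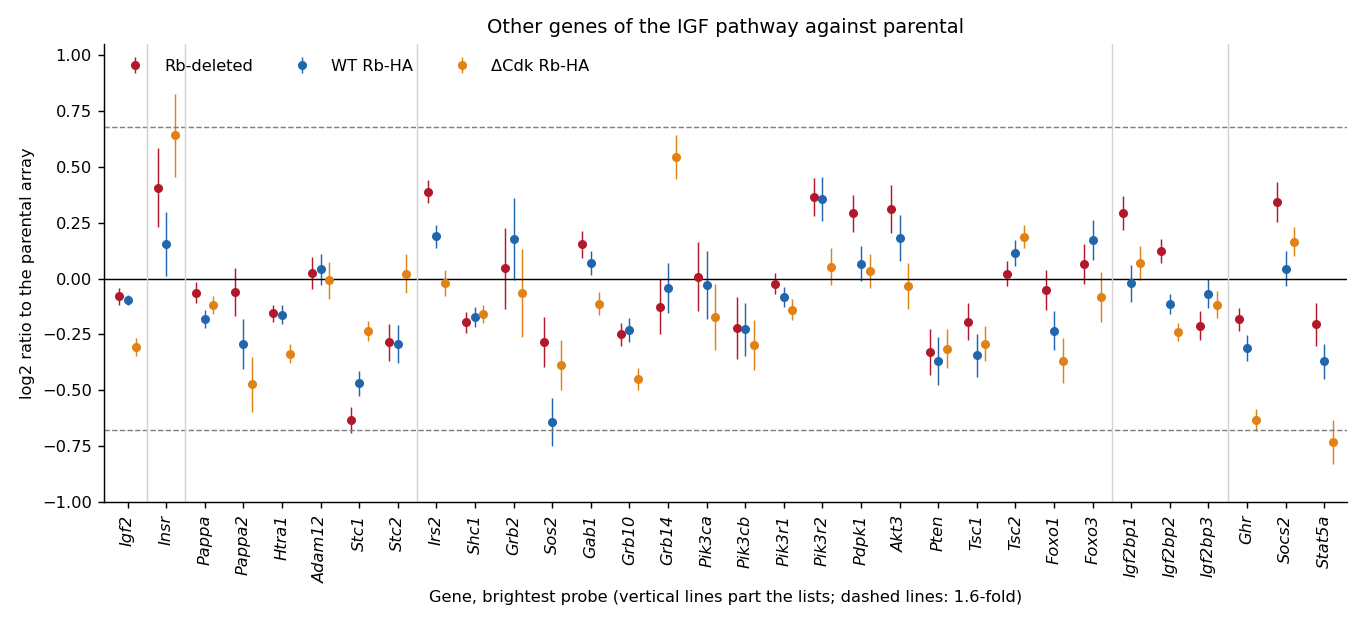
Log2 ratio to the parental array for the 32 detected genes of the pathway list in the Rb-deleted, the WT Rb-HA and the ΔCdk Rb-HA culture, with bead standard errors; vertical lines part the lists and dashed lines mark 1.6-fold. Stat5a in ΔCdk Rb-HA MEFs is the only value past 1.6-fold.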

How the data were processed

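The authors deposited 1 table of 45281 probes of MouseWG-6 v2.0 BeadChips, not normalized between arrays: the intensity of each probe, its bead standard error, a detection p-value (in steps of 1 in 936) and the count of beads. The authors' scanner software is not given in the sources used here. Each array was assigned by its label, and 0 columns were left unused. Background was corrected with limma 3.58.1 (R 4.3.3) by normexp, inferred from the detection p-values, with an offset of 16, followed by quantile normalization and log2. Genes were kept with a probe at p below 0.01 on at least 1 array, and the brightest probe stood for its gene. Bead standard errors were carried through each array's own mapping to the log2 scale. Python 3.11.15 did the rest. The calculation was tested on simulated data. Genome positions in the table name no build and are not printed. Every probe of the 9 genes, the pathway and marker lists and the nearest 3 genes of each member past 1.6-fold were named by rule. Members and lists were chosen with earlier results of these data known. Alternatives changed background, scaling, filter, probes and fold.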

Additional observations from a re-analysis of the deposited data

How the results depend on the processing

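All counts are out of 9 members past the fold. For Rb-deleted against parental MEFs the count of 1 became 2 with median scaling, with no scaling between arrays, with the mean over a gene's detected probes and at 1.5-fold, each time by adding Igfbp5, and 0 at 2-fold. For WT Rb-HA against parental it became 0 with no background correction, with an offset of 50, with median scaling, with no scaling and at 2-fold, and 2 at 1.5-fold, by adding Igf1. For ΔCdk Rb-HA against parental it became 0 with the mean over probes, where Igfbp3 was at -0.34, and at 2-fold. For ΔCdk Rb-HA against WT Rb-HA it became 0 with the mean over probes, where Igf1 was at -0.53, and at 2-fold, and 2 at 1.5-fold, by adding Igfbp3. For ΔCdk Rb-HA against Rb-deleted the count of 0 became 1 at 1.5-fold (Igfbp3). In all, 43 of 60 counts held, but some could not have changed. Each member's brightest probe was detected on all 4 arrays, so the detection settings could alter no count. Nor could the added rule of 2 bead standard errors, which for every member is smaller than 1.6-fold. The Igfbp6 difference between Rb-deleted and parental MEFs passed 1.6-fold under each background and scaling setting. Of 270 recomputed member differences, 254 stayed within 1.96 bead standard errors and 10 changed sign, each at most 0.21 in size as reported. All 16 that moved further did so with the mean over probes. Over all genes, the shares past 1.6-fold were 5.12%, 3.34%, 5.87%, 1.02%, 4.26% and 1.85% for the 6 comparisons in the order of the report. In that order they became 2.69%, 1.74%, 3.05%, 0.436%, 1.96% and 0.904% with an offset of 50, and 3.06%, 1.98%, 3.45%, 0.491%, 2.21% and 0.975% with no background correction. No paired analysis was possible because each group has 1 array. With 1 array per condition no library could be left out of a group.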
